A study of Mus musculus with 20 samples.

Results

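The acute phase genes examined here were 10 genes for plasma and secreted proteins of inflammation: the serum amyloid A genes Saa1, Saa2, Saa3 and Saa4, the orosomucoid genes Orm1, Orm2 and Orm3, the lipocalin gene Lcn2, the haptoglobin gene Hp and the serum amyloid P gene Apcs. They were taken by symbol from a table of 38924 genes, each symbol had 1 row, and all 10 passed the filter on low values (FPKM above 0.5 in at least 5 of 20 libraries, met by 14524 genes). Liver RNA came from male mice, 5 per group, that were 5 weeks old when purchased and received chow for 12 weeks after 1 week of acclimation. NDWT are C57BL/6J mice on control chow, and NDKO are TSP-1 knockout mice on control chow. HFWT are C57BL/6J mice on CDAHFD, and HFKO are TSP-1 knockout mice on CDAHFD. CDAHFD is a high fat chow with defined amino acids, limited methionine and no choline, used to model non-alcoholic steatohepatitis. The knockout is not described as limited to a cell type, so an effect of the liver cannot be told apart from 1 of other tissues. Each library was made from 1 mouse, numbered 1 to 5 within its group.

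Libraries held 15641545 to 23276322 assigned fragments, and 3 fragments were taken as the floor of detection. The hepatocyte markers Alb, Apoa1, Apob, Ttr, Ahsg, Hnf4a, Cps1, Ass1, Cyp2e1, Tat and Serpina1c summed to 33874 to 56173 FPKM (fragments scaled by gene length and library total) in all 20 libraries, as in liver. The targeted gene Thbs1 went against the genotype labels on the control diet, at 0.197 ± 0.103 FPKM (SD, n = 5) in NDWT and 1.304 ± 0.390 FPKM in NDKO (log2FC 2.28, SE 0.24, FDR 1.02e-05). On CDAHFD it was 4.62 ± 1.22 FPKM in HFWT and 3.44 ± 0.547 FPKM in HFKO (log2FC −0.39, FDR 0.408). Genotypes are therefore given as the libraries were labelled. Values are bulk measurements, in which fewer cells of a type and less RNA per cell cannot be told apart.

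The acute phase response is the change in plasma protein production that follows infection or tissue injury, and the liver is its main organ. Interleukin-1 and tumour necrosis factor act on hepatocytes through NF-κB and C/EBP factors, and interleukin-6 and its relatives act through JAK kinases and STAT3. Genes that answer to both arms, such as the inducible serum amyloid A genes, can rise steeply, whereas others such as haptoglobin are abundant at rest and rise modestly. Macrophages, neutrophils and epithelial cells also make some of these proteins, among them Lcn2 and Saa3.

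The members lie in few places in the genome (GRCm38, coordinates from the deposited table). Saa3 (ENSMUSG00000040026.7, chr7:46711998-46715676, minus strand), Saa4 (ENSMUSG00000040017.7, chr7:46728017-46732543, minus strand), Saa1 (ENSMUSG00000074115.3, chr7:46740501-46742980, minus strand) and Saa2 (ENSMUSG00000057465.4, chr7:46751833-46754314, plus strand) form a cluster on chromosome 7. Orm1 (ENSMUSG00000039196.2, chr4:63344560-63348163), Orm3 (ENSMUSG00000028359.4, chr4:63356162-63359511) and Orm2 (ENSMUSG00000061540.3, chr4:63362449-63365878) follow each other on the plus strand of chromosome 4. Lcn2 (ENSMUSG00000026822.9) is at chr2:32384633-32387797, Hp (ENSMUSG00000031722.9) at chr8:109575130-109579172 and Apcs (ENSMUSG00000026542.5) at chr1:172893962-172895054, all on the minus strand. All 10 are annotated as protein coding and none overlaps another gene of the table.

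Several members are near copies, so the assignment of fragments between them is uncertain. The aligned transcripts of Saa1 and Saa2 were 93.9% identical, those of Orm1 and Orm2 90.97%, those of Orm2 and Orm3 88.0% and those of Orm1 and Orm3 86.1%. Of the stretches of 31 bases in the Orm1 transcript, 27.5% also occurred in Orm2. How fragments that fit several genes were counted is not given in the sources used here.

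Promoter sequences were available for 8 members (RefSeq, GRCm38.p6, 250 bases before to 50 bases after the annotated start, written 5′ to 3′ on the gene's strand). Those of the near copies Saa1 and Saa2 and of the 4 members that rose on CDAHFD in WT mice are shown here, because the copies Saa1 and Saa2 were not called while their relative Saa3 rose, and Orm2 and Orm3 both rose. Capitals mark matches to the C/EBP motif TTNNGNAA and to TATAAA, both searched on both strands.
Saa1, chr7:46742931-46743230, minus strand: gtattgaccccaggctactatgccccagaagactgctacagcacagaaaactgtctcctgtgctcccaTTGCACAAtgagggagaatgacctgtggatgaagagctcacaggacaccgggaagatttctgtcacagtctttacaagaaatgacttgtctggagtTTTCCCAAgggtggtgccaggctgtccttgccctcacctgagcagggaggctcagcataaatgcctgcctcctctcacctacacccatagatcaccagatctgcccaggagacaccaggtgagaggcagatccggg
Saa2, chr7:46751583-46751882, plus strand: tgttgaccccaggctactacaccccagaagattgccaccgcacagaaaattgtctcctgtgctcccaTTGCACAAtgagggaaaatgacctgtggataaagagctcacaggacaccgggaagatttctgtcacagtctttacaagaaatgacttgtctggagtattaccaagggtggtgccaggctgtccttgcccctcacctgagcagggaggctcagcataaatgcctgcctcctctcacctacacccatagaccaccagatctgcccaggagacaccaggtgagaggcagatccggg
Saa3, chr7:46715627-46715926, minus strand: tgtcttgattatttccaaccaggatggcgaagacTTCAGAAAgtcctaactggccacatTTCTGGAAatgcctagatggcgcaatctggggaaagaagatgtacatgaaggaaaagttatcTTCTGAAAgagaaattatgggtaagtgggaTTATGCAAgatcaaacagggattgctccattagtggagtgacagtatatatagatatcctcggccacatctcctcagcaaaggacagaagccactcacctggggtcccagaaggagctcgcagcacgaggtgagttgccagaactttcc
Orm2, chr4:63362199-63362498, plus strand: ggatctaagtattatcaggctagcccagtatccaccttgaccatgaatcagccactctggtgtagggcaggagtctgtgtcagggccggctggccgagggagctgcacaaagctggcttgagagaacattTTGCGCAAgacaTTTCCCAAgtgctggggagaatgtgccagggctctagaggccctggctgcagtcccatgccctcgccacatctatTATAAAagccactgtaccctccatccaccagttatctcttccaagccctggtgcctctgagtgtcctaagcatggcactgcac
Orm3, chr4:63355908-63356207, plus strand: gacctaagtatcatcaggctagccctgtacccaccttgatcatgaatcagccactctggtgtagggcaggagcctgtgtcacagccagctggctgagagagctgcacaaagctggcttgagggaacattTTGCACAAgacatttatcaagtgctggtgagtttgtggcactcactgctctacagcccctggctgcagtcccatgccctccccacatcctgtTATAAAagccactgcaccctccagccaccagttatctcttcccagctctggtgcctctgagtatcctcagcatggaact
Lcn2, chr2:32387690-32387989, minus strand: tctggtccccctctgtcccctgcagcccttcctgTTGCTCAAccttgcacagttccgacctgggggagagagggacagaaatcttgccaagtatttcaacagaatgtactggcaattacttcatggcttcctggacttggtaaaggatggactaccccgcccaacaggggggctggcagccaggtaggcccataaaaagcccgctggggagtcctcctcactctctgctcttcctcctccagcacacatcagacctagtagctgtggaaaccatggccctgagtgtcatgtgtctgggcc
TTNNGNAA occurred in 7 of the 8 promoters, in all but Apcs, and in 40.7% of the 32851 promoters in the table. It occurred in Saa1 at −182 and −86, in Saa2 at −183 and in Saa3 at −216, −191, −129 and −99 from the start. Orm2 held it at −120 and −108, Orm3 at −121 and Lcn2 at −216. TATAAA was found in Orm2 at −33 and in Orm3 at −29, against 13.6% of all promoters. The STAT motif TTCNNNGAA, also searched on both strands, occurred in Apcs only, at −244, against 8.3% of all promoters, and the 10-base NF-κB consensus occurred in none of the 8, against 4.5%. No matches overlapped each other. The promoters of Saa1 and Saa2 were 95.35% identical and those of Orm2 and Orm3 86.2%. These matches describe letters in a short window and were not tested against the expression values.

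Levels in control WT liver, which are per kilobase and can be compared between genes, ran from 1.19 FPKM for Orm3 to 2611 FPKM for Hp. Hp, which binds free haemoglobin in plasma, stood at 2611 ± 221 FPKM and alone took 0.351% of all fragments. Orm1, the main orosomucoid or α1-acid glycoprotein, a carrier of drugs and lipids, followed at 594 ± 33.5 FPKM, and Saa1 at 287 ± 145 and Saa2 at 145 ± 83.8 FPKM came next. The ranges of Saa1 (133 to 515) and Saa2 (75.7 to 264) overlapped, as did those of Saa2, Saa4 (73.5 ± 12.7 FPKM) and Apcs (51.8 ± 20.5 FPKM). Orm2 (11.03 ± 3.43 FPKM), Saa3 (6.98 ± 2.85), Lcn2 (3.97 ± 2.58) and Orm3 (1.19 ± 0.436) were the low members, with overlapping ranges among Orm2, Saa3 and Lcn2. By mean FPKM, the low members Orm2 and Lcn2 moved up the order on CDAHFD. Saa3 stayed below Saa4 and Apcs, and Orm3 stayed lowest. In HFWT, Orm2 (189 ± 30.99 FPKM) stood between Saa1 (269 ± 73.8) and Saa2 (151 ± 45.2), with ranges that overlapped both, and Lcn2 (108 ± 26.3) stood above Saa4 (71.1 ± 7.91), Apcs (64.1 ± 15.0) and Saa3 (60.3 ± 12.1). The 10 genes together made up a mean of 0.445% of all fragments for NDWT mice, 0.391% for NDKO mice, 0.601% for HFWT mice and 0.579% for HFKO mice, most of it Hp.

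**Figure D1:**
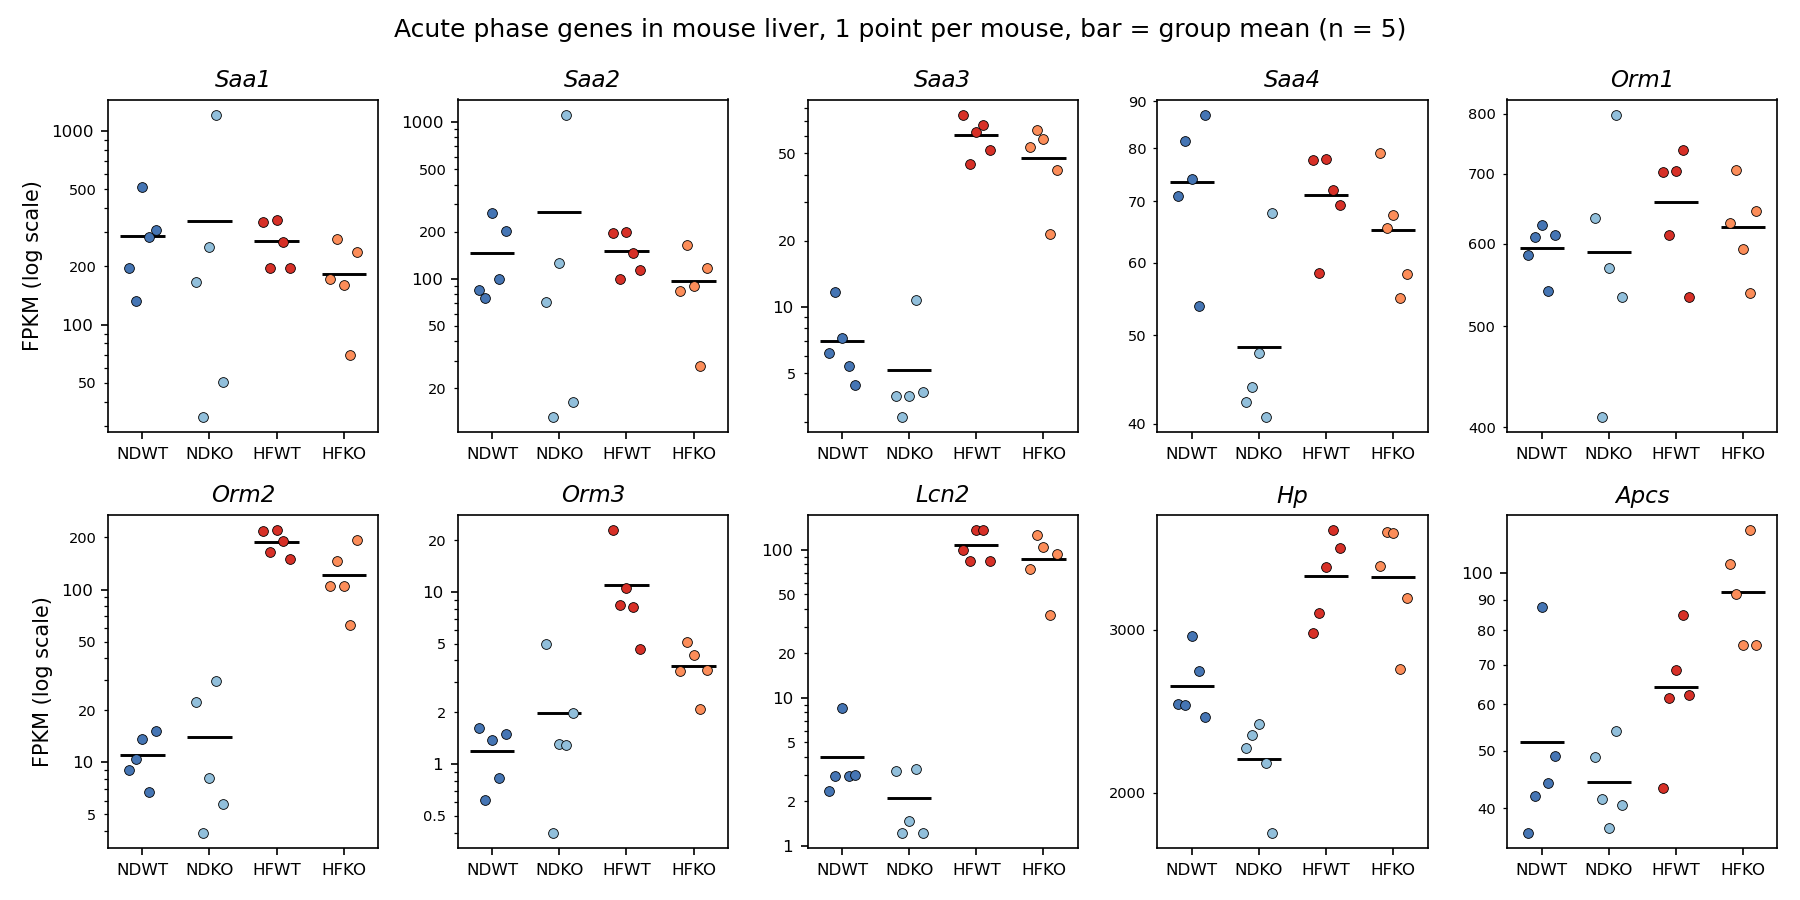
FPKM of each gene on a log axis (the scale differs between panels) by group, with 1 point per mouse in the order of replicate numbers and a bar at the mean of 5 mice. Saa3, Orm2 and Lcn2 in all 10 CDAHFD mice lie above all 10 control diet mice, whereas the groups overlap for Saa1, Saa2, Saa4 and Orm1.

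The diet comparisons asked which of these genes differed after 12 weeks of CDAHFD in each genotype. A member was called changed where its FDR (Benjamini-Hochberg, over all 14524 genes) was under 0.05 and its log2FC was above 0.58 in size. In WT mice 4 of 10 members rose (Saa3, Orm2, Orm3 and Lcn2) and none fell, while 44.1% of all tested genes rose and 4.62% fell (48.8% either way). In the libraries labelled TSP-1 null 6 of 10 rose (the same 4, Hp and Apcs) and none fell, while 41.9% of all tested genes rose and 4% fell (45.9% either way). The number of members that rose was thus near the share of all genes, and the members differ from one another more than the count shows. The groups did not overlap for 5 members in WT, all higher, beside 50.5% of all tested genes higher and 5.7% lower (56.2% in all). They did not overlap for 5 members in TSP-1 null either, all higher, beside 52.7% of all tested genes higher and 5.03% lower (57.8% in all). The members had a median log2FC of 0.37 in WT mice and of 0.85 in the other genotype, where the medians of all tested genes were 0.53 and 0.50. Scaling the libraries by the median of ratios lowered the log2FC of the median gene by 0.52 and 0.50, so each change is also given relative to the median gene. With that scaling 4 members rose in WT and 3 (Saa3, Orm2 and Lcn2) in TSP-1 null, and without any 1 mouse the counts stayed at 4 in WT and were 5 or 6 in TSP-1 null.

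**Figure D2:**
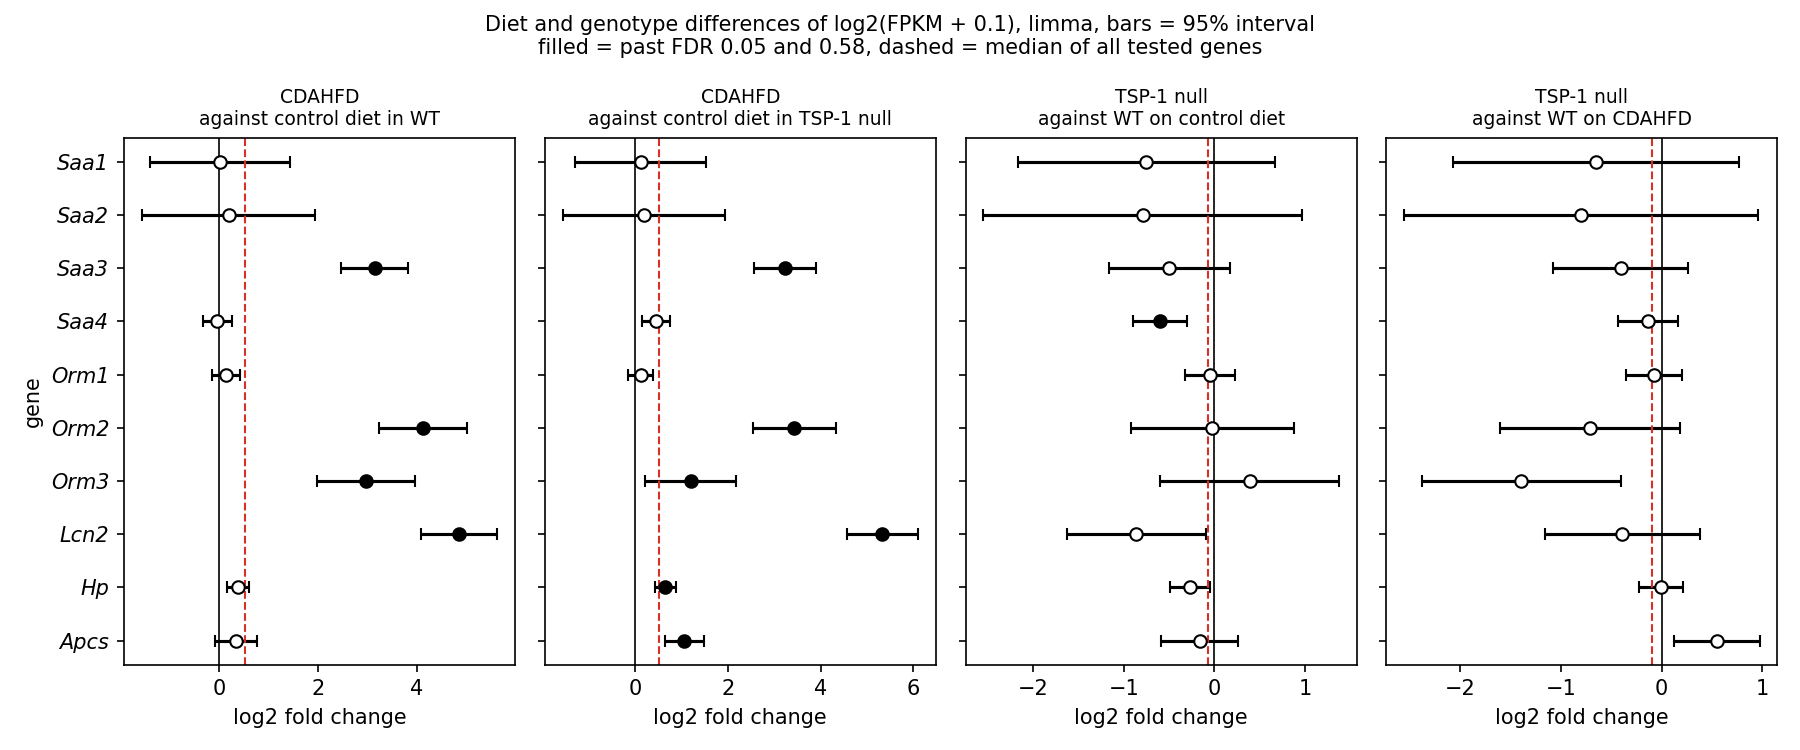
Log2 fold change (x axis, scale differs between panels) of each gene (y axis) in the 4 comparisons, with 95% intervals from limma over 20 mice; filled points passed the threshold, and the dashed line is the median of all tested genes. In both diet panels Saa3, Orm2 and Lcn2 lie at 3.15 to 5.34, far right of the median gene, and Saa1, Saa2 and Orm1 lie at or left of it.

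Lcn2, whose protein lipocalin 2 binds bacterial siderophores and limits iron supply to microbes, rose most of the 10. Its FPKM was 2.35, 2.94, 8.57, 2.96 and 3.03 in NDWT and 99.9, 83.8, 136, 135 and 83.9 in HFWT. In NDKO it was 3.22, 1.22, 1.46, 3.32 and 1.225, and in HFKO 74.2, 126, 105, 36.4 and 94.0. All 10 CDAHFD mice were above all 10 control mice, and the lowest CDAHFD value, HFKO replicate 4, was above the highest control value, NDWT replicate 3. The log2FC was 4.87 (SE 0.37, 29.1-fold, FDR 7.65e-10) in WT and 5.34 (SE 0.37, 40.4-fold, FDR 2.68e-10) in TSP-1 null, or 4.33 and 4.84 above the median gene. In WT 99.8% of tested genes had a lower log2FC, and in TSP-1 null 99.9%. Of the known partners of lipocalin 2, its receptor Slc22a17 was at 0.624 ± 0.234 FPKM in NDWT and 3.35 ± 0.957 FPKM in HFWT, and at 0.981 ± 0.451 FPKM in NDKO and 2.77 ± 0.566 FPKM in HFKO, and rose in both genotypes (log2FC 2.27, FDR 2.76e-07 in WT, and 1.47 in TSP-1 null). Mmp9, the gelatinase that forms a complex with lipocalin 2, rose by 1.94 and 1.87 on the log2 scale. This gene was at most 0.372 FPKM on control chow and passed the filter only through CDAHFD mice.

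The serum amyloid A genes did not move together. Saa1 and Saa2, which code for the inducible apolipoproteins that travel on high density lipoprotein, were not called in either genotype, Saa3, the form made largely outside hepatocytes, rose in both, and Saa4, the constitutive form, was not called. Saa3 was at 6.15, 11.7, 7.19, 5.38 and 4.44 FPKM in NDWT and at 74.9, 44.8, 62.5, 67.5 and 51.9 FPKM in HFWT. Its values were 3.92, 3.15, 3.93, 10.7 and 4.10 FPKM in NDKO and 53.2, 63.8, 58.1, 21.5 and 41.9 FPKM in HFKO. All CDAHFD values lay above all control values. The log2FC was 3.15 (SE 0.32, 8.88-fold, FDR 4.52e-08) in WT and 3.24 (SE 0.32, 9.45-fold, FDR 3.61e-08) in TSP-1 null, 2.62 and 2.74 above the median gene.

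Saa1 stood at 197, 133, 515, 282 and 308 FPKM in NDWT and at 341, 196, 346, 268 and 195 FPKM in HFWT. In NDKO it was 166, 33.2, 253, 1216 and 50.4 FPKM and in HFKO 172, 279, 161, 69.5 and 237 FPKM. The groups overlapped widely, and the control diet mice were the more scattered, above all NDKO, whose values ran from 33.2 to 1216 FPKM. The log2FC was 0.01 (95% interval −1.41 to 1.43, FDR 0.990) in WT and 0.11 (−1.31 to 1.53, FDR 0.889) in TSP-1 null. Leaving out NDKO replicate 4 moved the value in TSP-1 null to 0.86 (FDR 0.15) and leaving out NDKO replicate 2 to −0.44, with FDR between 0.15 and 0.987 over the mice left out. With median of ratios scaling it was −0.53 in WT and −0.41 in TSP-1 null. The intervals do not exclude a change of 2-fold in either direction, so this fit does not show that Saa1 stayed level. It uses 1 spread for all groups, and the SD of log2(FPKM + 0.1) was 2.05 in NDKO, 0.73 in NDWT and 0.41 in HFWT. The interval in WT thus also carries the scatter of NDKO mice, which are not in that comparison.

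Saa2 repeated the pattern of Saa1. Its FPKM was 84.2, 75.7, 264, 99.3 and 203 in NDWT, and 196, 100.3, 199, 147 and 114 in HFWT. In NDKO it was 71.2, 13.1, 127, 1117 and 16.3, and in HFKO 84.0, 164, 90.4, 27.95 and 117. The highest NDKO mouse was again replicate 4 and the lowest replicate 2. The log2FC was 0.19 (−1.57 to 1.95) in WT and 0.18 (−1.58 to 1.94) in TSP-1 null. The latter was 1.16 (FDR 0.0944) without NDKO replicate 4 and −0.44 without NDKO replicate 2. The WT interval of Saa2, like that of Saa1, carries the scatter of NDKO (SD 2.59, against 0.81 in NDWT and 0.44 in HFWT). Because the 2 genes are near copies, their fragments were also added, which gave log2FC of 0.06 (FDR 0.94) and 0.12 (FDR 0.892). The ratio of Saa2 to Saa1 FPKM was 0.504 ± 0.119 in NDWT and 0.558 ± 0.0297 in HFWT, and 0.513 ± 0.236 in NDKO and 0.507 ± 0.0725 in HFKO. Relative to Saa1, Saa3 was at 0.0334 ± 0.0314 in NDWT and 0.229 ± 0.0327 in HFWT.

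Saa4 was not called in WT, at 73.5 ± 12.7 FPKM in NDWT and 71.1 ± 7.91 in HFWT (log2FC −0.04, 95% interval −0.34 to 0.26). In TSP-1 null it was 48.5 ± 11.2 FPKM on the control diet and 65.1 ± 9.42 on CDAHFD, a log2FC of 0.44 (SE 0.14, FDR 0.010) that stayed under the fold threshold and was 0.06 below the median gene. With median of ratios scaling Saa4 was at −0.58 (FDR 0.00148) in WT and −0.08 (FDR 0.642) in TSP-1 null. The control diet groups differ for this gene, as described with the genotypes.

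Among the orosomucoids the minor genes rose and the main one was not called. Orm2 was at 9.04, 10.4, 13.6, 6.77 and 15.3 FPKM in NDWT and at 217, 166, 221, 191 and 150.3 FPKM in HFWT. In NDKO it was 22.4, 3.92, 8.14, 29.5 and 5.74 FPKM and in HFKO 105, 146, 104, 62.1 and 192 FPKM. No control mouse reached the lowest CDAHFD mouse, although NDKO spread from 3.92 to 29.5 FPKM. The log2FC was 4.13 (SE 0.43, 17.5-fold, FDR 5.91e-08) in WT and 3.44 (SE 0.43, 10.8-fold, FDR 7.58e-07) in TSP-1 null, 3.60 and 2.94 above the median gene.

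Orm3, the lowest member, was at 1.61, 0.620, 1.38, 0.829 and 1.49 FPKM in NDWT and at 22.9, 8.44, 10.5, 8.17 and 4.64 FPKM in HFWT. The NDKO values were 4.95, 0.399, 1.315, 1.295 and 1.98 FPKM and the HFKO values 3.46, 5.13, 4.315, 2.095 and 3.53 FPKM. The WT groups did not overlap, and the TSP-1 null groups did, through NDKO replicate 1. In WT it rose by 2.98 on the log2 scale (SE 0.47, FDR 1.32e-05). The rise in TSP-1 null was 1.20 (SE 0.47, FDR 0.0293) and was lost without any of NDKO replicates 2, 3 and 4 or HFKO replicates 2 and 3 (FDR 0.0527 to 0.108) and with median of ratios scaling (0.70, FDR 0.208) or quantile normalization (0.44, FDR 0.411). In NDWT it rested on 8 to 29 fragments per library.

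Orm1 ranged from 540.4 to 626 FPKM in NDWT, 409 to 798 in NDKO, 534 to 737 in HFWT and 539 to 706 in HFKO. The ranges overlapped in every pair of groups. Its log2FC was 0.14 (95% interval −0.14 to 0.41) in WT and 0.11 (−0.17 to 0.38) in TSP-1 null, 0.39 below the median gene in both, and it turned to −0.40 (FDR 0.0146) and −0.41 (FDR 0.0132) with median of ratios scaling but was 0.47 (FDR 0.00467) and 0.50 (FDR 0.0030) with quantile normalization, so its direction is not settled. The level of Orm2 relative to Orm1 went from 0.0184 ± 0.00498 in NDWT to 0.287 ± 0.0237 in HFWT, and from 0.0214 ± 0.0136 in NDKO to 0.193 ± 0.0674 in HFKO. This ratio does not depend on the scaling between libraries. The FPKM of the 3 genes added up to 606 ± 36.6 in NDWT and 858 ± 115 in HFWT, and to 604 ± 154 in NDKO and 748 ± 105 in HFKO, and their summed fragments gave log2FC of 0.49 (FDR 0.00483) and 0.33 (FDR 0.0453), under the fold threshold.

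Hp rose modestly in absolute terms. Its FPKM was 2493, 2485, 2955, 2707 and 2416 in NDWT and 2974, 3130.0, 3505, 3842 and 3676 in HFWT. In NDKO it was 2235, 2310.2, 2375, 2156 and 1811, and in HFKO 3512, 3821, 3812, 2722 and 3245. The diets did not overlap within a genotype, and the gap in WT was narrow. The log2FC was 0.39 (SE 0.11, 1.31-fold, FDR 0.00276) in WT, under the fold threshold, and 0.65 (SE 0.11, 1.57-fold, FDR 2.06e-05) in TSP-1 null, where it was called. Relative to the median gene these were −0.14 and 0.15, and with median of ratios scaling −0.15 (FDR 0.294) and 0.13 (FDR 0.396), so the direction in WT depended on the scaling. Quantile normalization moved the values the other way, to 0.76 (FDR 5.44e-05) in WT, which passed the threshold, and 1.11 (FDR 6.90e-07) in TSP-1 null.

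Cd163, the macrophage receptor that takes up haptoglobin bound to haemoglobin, fell in both genotypes. Its FPKM was 5.365, 6.03, 8.80, 6.16 and 7.40 in NDWT, and 0.087, 0.154, 0.198, 0.078 and 0.245 in HFWT. In TSP-1 null mice it ran from 6.12 to 10.2 on control chow and from 0.210 to 0.47 on CDAHFD. No CDAHFD mouse came near any control mouse. The log2FC was −4.79 (SE 0.21, FDR 8.38e-13) in WT and −4.27 (SE 0.21, FDR 4.40e-12) in TSP-1 null. Hmox1, heme oxygenase 1, which degrades the heme that Cd163 brings in, rose from 15.8 ± 1.54 FPKM in NDWT to 52.0 ± 5.13 in HFWT (log2FC 1.71) and from 14.45 ± 1.14 in NDKO to 49.1 ± 15.4 in HFKO (log2FC 1.70). In the same libraries 9 of 13 tested macrophage markers rose in WT and 10 in TSP-1 null, beside 44.1% and 41.9% of all tested genes. In each genotype 1 fell, Clec4f, a marker of resident Kupffer cells (−1.22 and −0.77 on the log2 scale), beside 4.62% and 4% of all tested genes. With median of ratios scaling 9 rose in each and 2 fell in WT. Of these markers Trem2, Itgam and Ccr2 passed the filter only through CDAHFD mice.

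**Figure D3:**
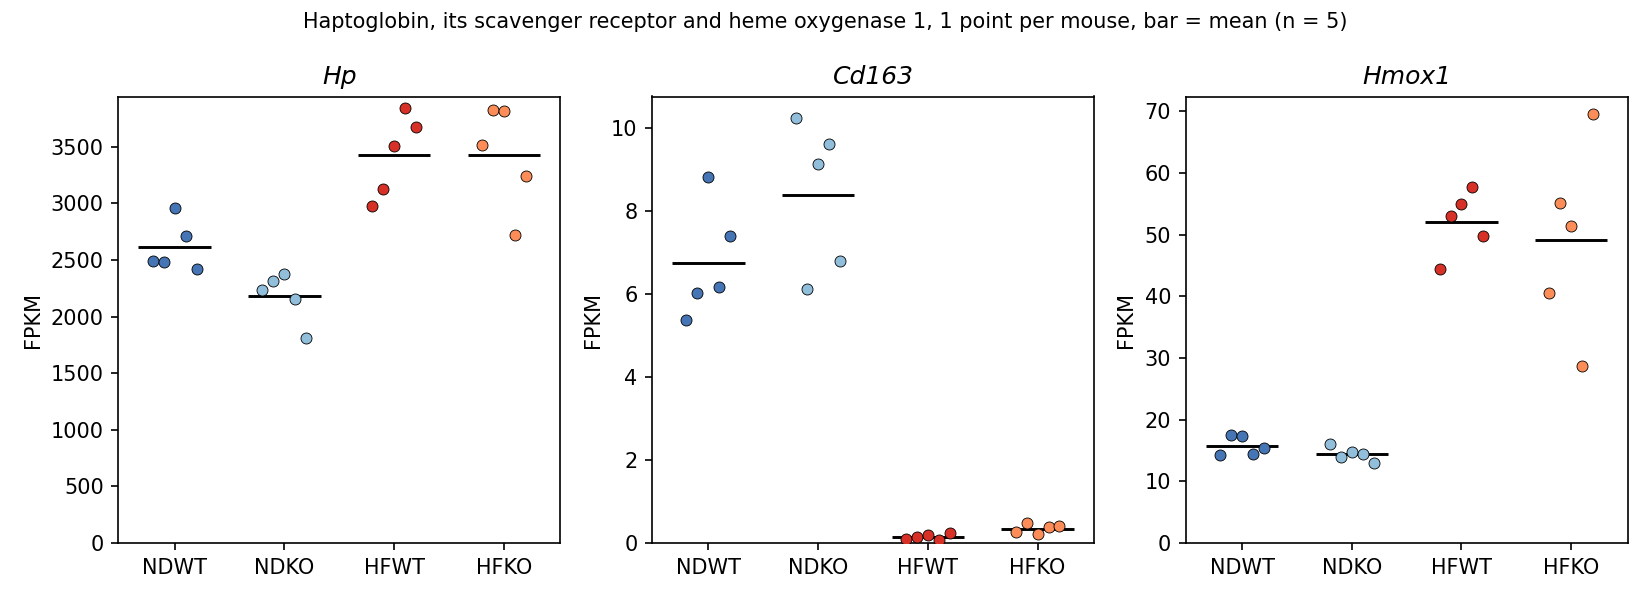
FPKM of Hp, Cd163 and Hmox1 (linear axes from 0) by group, 1 point per mouse with a bar at the mean of 5. Hp is higher on CDAHFD within each genotype, Cd163 lies between 5.365 and 10.2 FPKM in control mice and between 0.078 and 0.47 FPKM in CDAHFD mice, and Hmox1 is higher on CDAHFD in every mouse.

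Apcs, which codes for serum amyloid P, the pentraxin that is a major acute phase reactant of mice and binds amyloid and chromatin, was called in TSP-1 null only. Its FPKM was 36.4, 41.9, 87.6, 44.2 and 49.0 in NDWT, and 43.2, 61.4, 68.5, 85.0 and 62.1 in HFWT. In NDKO it was 48.8, 41.5, 37.1, 54.0 and 40.6, and in HFKO 103, 92.0, 75.7, 118 and 75.6. NDWT replicate 3 lay above all of HFWT, whereas NDKO and HFKO did not overlap. The log2FC was 0.35 (95% interval −0.08 to 0.77, FDR 0.135) in WT and 1.06 (SE 0.20, 2.08-fold, FDR 0.000133) in TSP-1 null. With median of ratios scaling the values were −0.20 (FDR 0.449) and 0.54 (FDR 0.0380), the latter under the fold threshold. Without NDWT replicate 3 the log2FC in WT was 0.55, just under the fold threshold, and its limma FDR ran from 0.00692 to 0.321 over the mice left out. The call in TSP-1 null only thus depends in part on that mouse. The interaction term for Apcs was 0.71 (SE 0.29, FDR 0.244), and 0.50 without NDWT replicate 3, so the genotypes were not shown to differ in their response.

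The genotype comparisons asked whether the libraries labelled TSP-1 null differed from those labelled WT on each diet. They share their libraries with the diet comparisons, so the values are not independent of those above, and the labels are those that Thbs1 went against on the control diet. On the control diet 1 of 10 members was called, Saa4, which was lower in NDKO, beside 1.74% of all tested genes higher and 3.03% lower (4.77% either way). Saa4 was at 71.0, 81.5, 74.1, 53.8 and 87.1 FPKM in NDWT and at 42.2, 43.9, 47.8, 40.7 and 68.0 FPKM in NDKO. The groups overlapped through NDWT replicate 4 and NDKO replicate 5. The log2FC was −0.61 (SE 0.14, FDR 0.00856), close to the fold threshold, and the call was lost without any of NDWT replicates 2 and 5 and NDKO replicates 1, 2 and 4 (log2FC −0.54 to −0.58, FDR 0.0202 to 0.0279) and with median of ratios scaling (−0.53, FDR 0.0197) or quantile normalization (−0.51, FDR 0.0269).

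Hp was lower in all 5 NDKO mice than in any NDWT mouse, with a log2FC of −0.26 (SE 0.11, FDR 0.108), which was −0.44 (FDR 0.042) with quantile normalization and −0.19 (FDR 0.353) with median of ratios scaling, both under the fold threshold. It was the only member whose groups did not overlap in this comparison, against 6.69% of all tested genes lower and 2.33% higher without overlap (9.03% in all). Lcn2 was lower in NDKO by 0.86 on the log2 scale (SE 0.37, FDR 0.133), a difference to which NDWT replicate 3 contributes. Saa1 (−0.75, 95% interval −2.17 to 0.67) and Saa2 (−0.79, −2.55 to 0.97) had the widest intervals, and without NDKO replicate 4 they were −1.50 (FDR 0.0729) and −1.77 (FDR 0.0680). Orm1 and Orm2 differed by −0.05 and −0.02. In all, 3 of 10 members had an unadjusted p under 0.05, and the median log2FC of the members was −0.38, beside −0.07 for all tested genes.

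On CDAHFD 0 of 10 members were called between the genotypes by limma, beside 0.496% of all tested genes (0.165% higher, 0.33% lower), and 2 had an unadjusted p under 0.05. Orm3 was lower in HFKO by 1.39 on the log2 scale (SE 0.47, FDR 0.141), with 22.9 FPKM in HFWT replicate 1 as the highest value, and Apcs was higher by 0.55 (SE 0.20, FDR 0.178). Orm2 was 189 ± 30.99 FPKM in HFWT and 122 ± 49.2 FPKM in HFKO (log2FC −0.71, 95% interval −1.61 to 0.18). This interval also carries the scatter of NDKO mice (SD of log2(FPKM + 0.1) 1.25, against 0.24 in HFWT and 0.61 in HFKO). Under the other settings the limma FDR of Orm2 was 0.19 or more. Saa3 (−0.41, −1.08 to 0.26) and Lcn2 (−0.39, −1.16 to 0.38) differed by less than the spread between mice. Hp was at 3425 ± 365 and 3423 ± 458 FPKM (log2FC −0.01, −0.23 to 0.22). The median of the members was −0.40, beside −0.10 for all tested genes. The groups overlapped for all 10 members, and did not for 4.98% of all tested genes (0.847% higher, 4.13% lower).

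The interaction of diet and genotype was called for 0 of 10 members by limma, beside 0.647% of all tested genes (0.337% higher, 0.31% lower), and 3 members had an unadjusted p under 0.05. These were Orm3 (−1.78, SE 0.67, FDR 0.20), Apcs (0.71, FDR 0.244) and Saa4 (0.47, SE 0.20, FDR 0.265). For Lcn2 the interaction was 0.47 (95% interval −0.62 to 1.56), for Saa3 0.09 (−0.86 to 1.04) and for Orm2 −0.69 (−1.96 to 0.58).

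The other genes of the pathway were read from fixed lists. Of 30 cytokines, receptors and transcription factors that drive acute phase genes, 25 were tested, and 15 rose and 2 fell in each genotype, with medians of 0.83 and 0.75 on the log2 scale. Of all tested genes 44.1% and 41.9% rose and 4.62% and 4% fell, with medians of 0.53 and 0.50. Relb, an NF-κB subunit of the non-canonical pathway, was at 0.815 ± 0.208 FPKM in NDWT and 7.01 ± 1.07 in HFWT and rose by 2.98 and 2.94 on the log2 scale in WT and TSP-1 null. Its partner Nfkb2 rose by 2.26 and 2.00, and Nfkbiz, an NF-κB cofactor needed for a subset of target genes that includes Lcn2, rose by 1.55 and 1.59. The cytokine Tnf rose by 2.74 and 3.22, its receptor Tnfrsf1a by 0.89 and 0.75, and the kinase Jak2 by 0.94 and 1.22. With median of ratios scaling 7 genes of this list rose and 4 fell in WT, and 10 rose and 4 fell in TSP-1 null.

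Of the cytokines that act through STAT3, little RNA of Il6 and its relatives Il11, Osm and Lif, and none of Il22, was counted. Il6 had at most 3 fragments in any of the 20 libraries, Il11 at most 5, and Il22 had 0 fragments in every library, which is at the floor of 3. Osm had at most 2 fragments per control library and 5 to 31 per CDAHFD library, and Lif at most 1 and 15 to 57. None of these 5 passed the filter, so none was tested. On the control diet 2 genes of the list were higher in NDKO, Il6ra, the interleukin-6 receptor (log2FC 0.80, FDR 0.00189), and Cebpd, a C/EBP factor of the acute phase (1.15, FDR 0.00223), while Il1b was lower (−1.28, FDR 0.00992). Beside these, 1.74% of all tested genes were higher and 3.03% lower. Of the 25 genes 0 were called between the genotypes on CDAHFD, where only 0.496% of all tested genes were called.

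Other positive acute phase genes went both ways. Of 21 tested, 5 rose and 4 fell in WT and 5 rose and 3 fell in TSP-1 null, with medians of −0.16 and −0.18 against 0.53 and 0.50 for all tested genes. The shares of all tested genes were 44.1% and 41.9% higher and 4.62% and 4% lower. Cd14, the endotoxin coreceptor, rose by 3.62 and 3.02 on the log2 scale, Il1rn, the interleukin-1 receptor antagonist, by 2.06 and 2.08, and Steap4, a metalloreductase, by 2.14 and 2.56. Cp, ceruloplasmin, rose by 0.60 and 0.62, close to the fold threshold, and was at 0.06 and 0.10 with median of ratios scaling. Fgg, fibrinogen γ, fell in WT from 1899 ± 192 to 1153 ± 140 FPKM (log2FC −0.72, FDR 1.65e-06). The metallothionein Mt2 was higher in NDKO than in NDWT (log2FC 3.03, FDR 0.000653), and its response to diet differed between the genotypes (interaction −2.93, FDR 0.0496). With median of ratios scaling 4 rose and 13 fell in WT, and 3 rose and 12 fell in TSP-1 null. Of 9 negative acute phase genes, 0 rose and Apoa2 fell in WT (−0.80), and Apoa2 (−0.71) and Rbp4 (−0.62) fell in TSP-1 null, beside 4.62% and 4% of all tested genes. Under median of ratios scaling 6 fell in WT and 4 in TSP-1 null.

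Of the receptors and partners of the member proteins, 10 of 15 tested rose in WT and 11 in TSP-1 null, beside 44.1% and 41.9% of all tested genes, and Cd163 fell in each. With median of ratios scaling 8 rose and 2 fell in WT, and 9 rose and 1 fell in TSP-1 null. Tlr2, a receptor to which serum amyloid A binds, rose by 2.63 and 2.64 on the log2 scale, and Cd36, a scavenger receptor for serum amyloid A, rose by 1.95 and 2.94 and was lower in NDKO than in NDWT (−1.21, FDR 0.00619). Lrp2, a receptor that also takes up lipocalin 2, had 1 to 36 fragments per library and was not tested.

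Markers of some other cells moved with the members that rose. Beside the counts below, 44.1% of all tested genes rose in WT and 41.9% in TSP-1 null, while 4.62% and 4% fell. The 13 neutrophil markers, cells in which Lcn2 is stored in granules, summed to 2.66 to 6.91 FPKM on control chow. On CDAHFD they summed to 28.3 to 45.1 FPKM in HFWT and to 18.6 to 37.1 FPKM in HFKO. All 6 tested (Csf3r, S100a8, S100a9, Mmp9, Retnlg and Ngp) rose in both genotypes. Mmp9 (at most 0.372 FPKM on control chow) and Ngp (at most 0.239) passed the filter only through CDAHFD mice, so their rise was favoured in advance. Elane was not tested, at 0 to 0.57 FPKM on control chow and 0 to 0.804 FPKM on CDAHFD. Of the defining neutrophil genes, Ly6g was at the floor in NDWT, NDKO and HFWT, and Mpo, Camp and Mmp8 were at the floor on the control diet. Macrophage markers, cells that express Saa3, summed to 289 to 483 FPKM on control chow, to 1287 to 1799 FPKM in HFWT and to 888 to 1969 FPKM in HFKO. On CDAHFD the largest part of these sums was Lyz2 alone, at 401 to 955 FPKM. Cholangiocyte markers summed to 12.7 to 18.2 FPKM on control chow and to 184 to 494 FPKM on CDAHFD. Most of this sum was Spp1 alone, at 164 to 446 FPKM on CDAHFD, so it mainly follows 1 gene. Of this list 6 of 6 tested were higher in both genotypes, and Cftr was not tested. Krt7 (at most 0.153 FPKM on control chow), Cldn7 (at most 0.348) and Krt19 (at most 0.533) passed the filter only through CDAHFD mice, so their rise was favoured in advance. Stellate cell markers rose in 7 of 7 and T and B lymphocyte markers in 6 of 7 in both genotypes. With median of ratios scaling each of these lists had 5 higher in WT and 4 in TSP-1 null. The lymphocyte markers Cd8a (at most 0.364 FPKM on control chow) and Ms4a1 (at most 0.439) passed the filter only through CDAHFD mice. Endothelial markers rose in 1 of 5 in WT and 2 of 5 in TSP-1 null (with median of ratios scaling 0 rose and 2 fell in WT). Of the adipocyte markers, Adipoq, Lep, Plin1, Retn and Adig were at the floor in every group, and Lep had 0 fragments throughout. Hepatocyte markers fell in 2 of 11 in WT and 5 of 11 in TSP-1 null (9 and 7 with median of ratios scaling). The part of these cell types in the rise of Lcn2, Saa3, Orm2 and Orm3 was not tested.

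Mice of the same group differed far more in some members than in others. The SD of log2(FPKM + 0.1) within groups was 1.46 for Saa2 and 1.17 for Saa1, above 97.4% and 96.1% of all tested genes, and 0.81 for Orm3, 0.74 for Orm2, 0.64 for Lcn2 and 0.55 for Saa3. It was 0.35 for Apcs, 0.24 for Saa4, 0.22 for Orm1 and 0.16 for Hp, beside a median of 0.22 over all tested genes. The spread of Saa2 was widest in NDKO, with an SD of 2.59 above 99.9% of tested genes, and 0.44 in HFWT. Single mice stood out across the members. NDKO replicate 4 was the highest NDKO mouse for 7 of 10 members and NDKO replicate 2 the lowest for 7, HFKO replicate 4 was the lowest HFKO mouse for 9 and the highest for Apcs, and NDWT replicate 3 was the highest NDWT mouse for 6. Within NDKO the highest mouse, replicate 4, had the fewest fragments (15984261) and the lowest, replicate 2, the most (22721394) and the lowest summed macrophage markers (289 FPKM). HFKO replicate 2, the highest HFKO mouse for 7 members, had the fewest fragments of all 20 libraries (15641545). HFKO replicate 4 had the lowest summed macrophage (888 FPKM) and neutrophil (18.6 FPKM) markers of its group, at 19763973 fragments. The part of depth and of these cells in the spread was not tested.

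**Figure D4:**
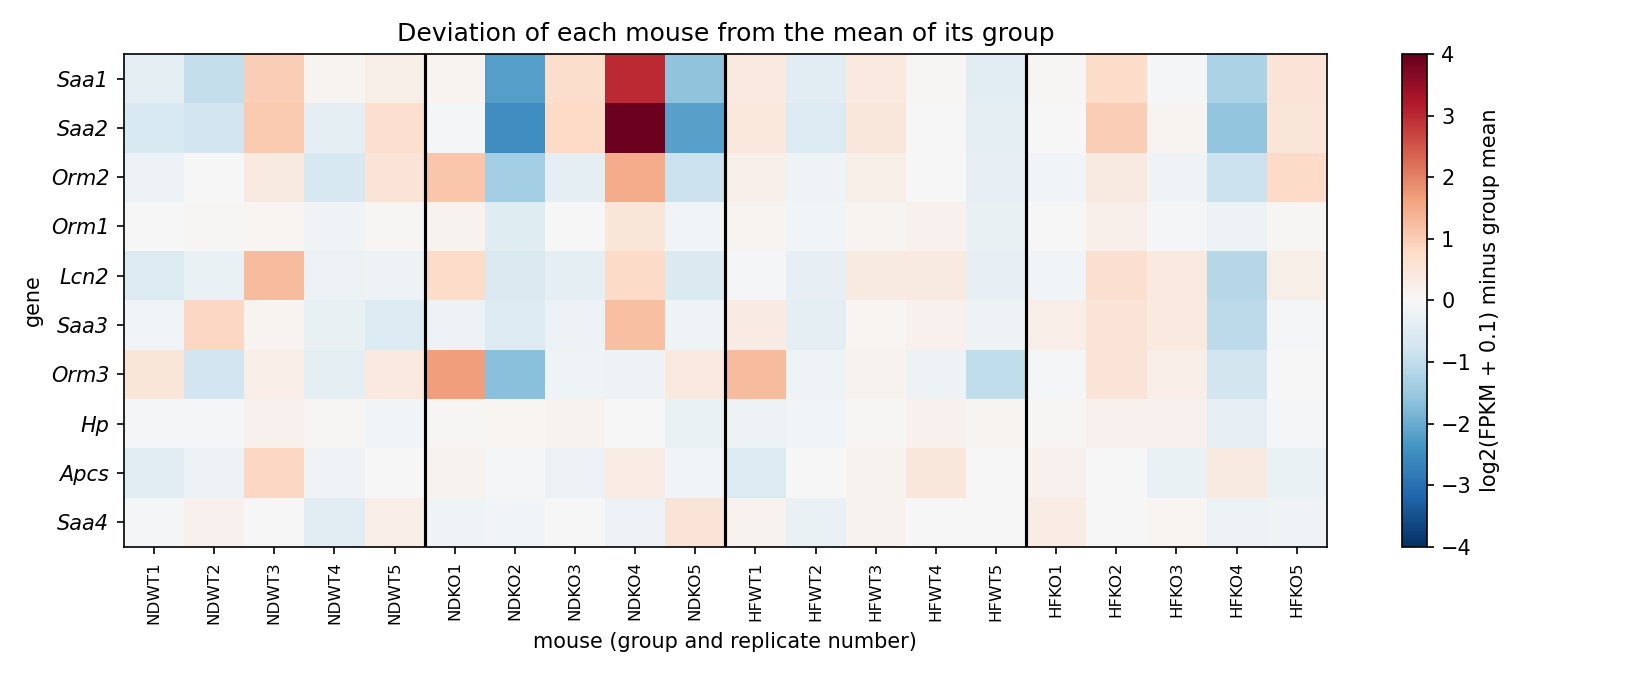
Deviation of each mouse (columns, grouped by group) from its group mean in log2(FPKM + 0.1) for each gene (rows), red above and blue below. Saa1, Saa2, Orm2, Orm1 and Lcn2 are high together in NDKO replicate 4 and low together in NDKO replicate 2 and HFKO replicate 4. Saa1, Saa2 and Lcn2 are also high in NDWT replicate 3, where Orm1 (626 FPKM, group mean 594) is only slightly above its mean. Saa4 is low in HFKO replicate 4 and in NDKO replicate 4, where those 5 genes are high.

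The deviations from the group means were correlated between members over the 20 mice, so that mean differences between diets or genotypes do not enter. Groups with a wide spread weigh more in r, such as NDKO for Saa2 (SD 2.59, against 0.44 in HFWT). Of 45 pairs, 12 had an adjusted p under 0.05 (two-sided permutation test within groups, 100000 permutations, Benjamini-Hochberg over 45 pairs), and all 12 were positive. They comprised all 10 pairs among Saa1, Saa2, Orm1, Orm2 and Lcn2, with the pairs Saa3 and Orm1 and Lcn2 and Hp besides. The near copies Saa1 and Saa2 had r = 0.987 (rho = 0.944, permutation p = 1e-05, the smallest these permutations can give, adjusted p = 0.000225), and r was 0.969 without the 2 mice farthest from the median, NDKO replicates 2 and 4. Orm1 and Orm2, also near copies, had r = 0.868 (rho = 0.877, permutation p = 1e-05, adjusted p = 0.000225, and r = 0.732 without those mice). Between families, Saa2 and Orm2 had r = 0.834 (rho = 0.734, permutation p = 0.00199, adjusted p = 0.00896) and r = 0.676 without the same mice. Orm2 and Lcn2 had r = 0.750 (rho = 0.848, permutation p = 0.00127, adjusted p = 0.00655) and 0.727 without them.

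Orm1 was not called between the diets, yet it moved with the others from mouse to mouse, with r = 0.831 to Saa1 (rho = 0.735, permutation p = 0.00061, adjusted p = 0.00549) and 0.581 without NDKO replicates 2 and 4. The pair Lcn2 and Hp was weaker, with r = 0.603 (rho = 0.463, permutation p = 0.00996, adjusted p = 0.0374, and 0.0486 for rho before and 0.168 after adjustment) and r = 0.394 without NDWT replicate 3 and HFKO replicate 4, so it rests on those mice. Saa3 and Orm1 had r = 0.692 (rho = 0.608, permutation p = 0.00131, adjusted p = 0.00655) and 0.515 without NDKO replicate 4 and HFKO replicate 4. Saa4 was in none of the 12 pairs, with r between −0.195 (permutation p = 0.564, adjusted p = 0.744, with Saa1) and 0.236 (permutation p = 0.404, adjusted p = 0.587, with Orm3). All pairs share the libraries, and a deviation of a whole library would enter every pair.

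**Figure D5:**
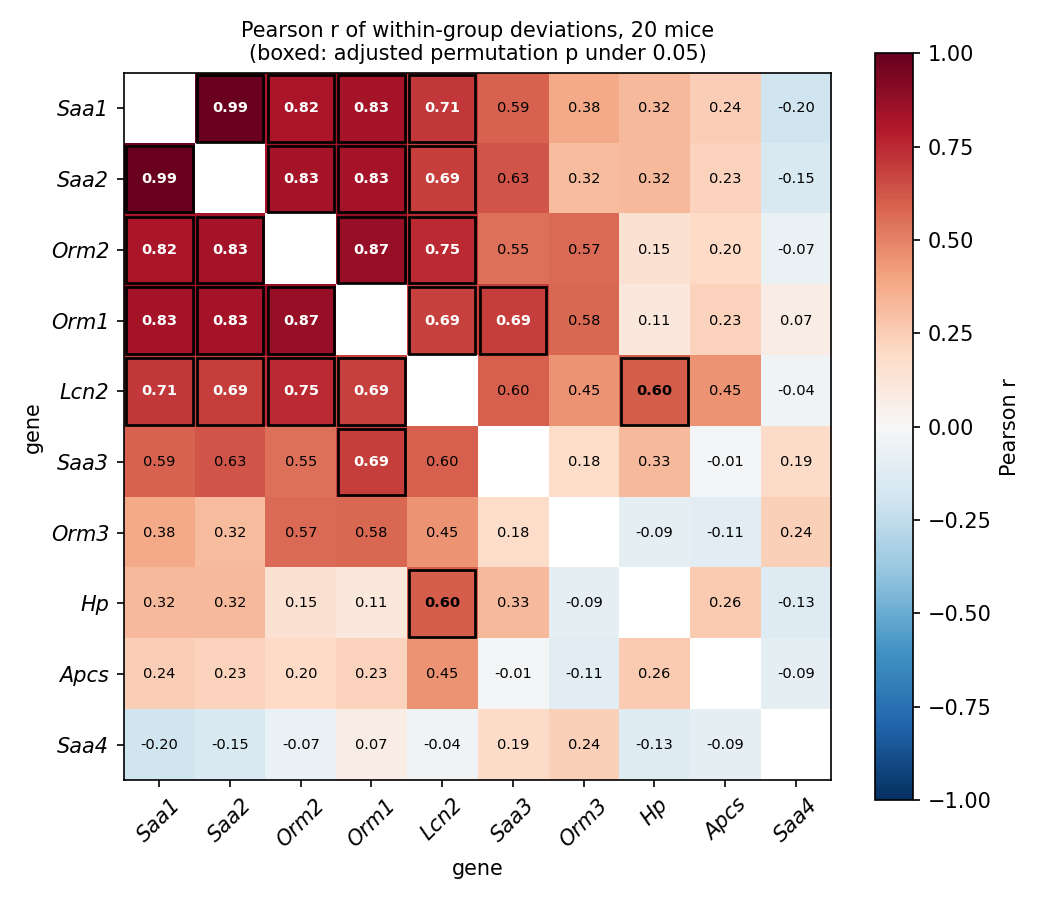
Pearson r of the within-group deviations of each pair of genes over 20 mice, red positive and blue negative, with pairs under an adjusted permutation p of 0.05 boxed. The boxes join Saa1, Saa2, Orm2, Orm1 and Lcn2 in all 10 of their pairs, and the row of Saa4 lies between −0.20 and 0.24.

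Outside the list, the genes whose within-group deviations were most like those of each member over the 20 mice were ranked by Pearson r, as a description without a test. For Saa1 they were Rarb (r = 0.852), Hcst (0.821) and Hist1h4k (0.804), and for Saa2 Hcst (0.822), Hist1h4k (0.804) and Gm13194 (0.801). Orm2 was nearest to Cd53 (0.901), AU020206 (0.884) and Ifi204 (0.881), Orm1 to Ccl2 (0.859), Adsl (0.850) and A530040E14Rik (0.832), and Lcn2 to Cd44 (0.843), Ptafr (0.834) and Serpina3n (0.824), which is itself an acute phase gene. Saa4 stood apart with Slc17a3 (0.879), Acat3 (0.865) and Hsd3b2 (0.852), and Apcs with the plasma protein genes Trf (0.763), Alb (0.754) and Kng1 (0.752). Hp was nearest to Vnn3 (0.846), Enpp2 (0.755) and Zc3h13 (0.708), Orm3 to Spns2 (0.827), Ddit4 (0.823) and Trp53bp2 (0.820), and Saa3 to Gm5062 (0.755), Cd3g (0.734) and Malat1 (0.705).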

How the data were processed

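Poly(A) RNA from the livers of 20 male mice (5 per group) was sequenced on an Illumina HiSeq instrument from directional libraries. The authors processed the reads with QuickRNASeq. The submitters' processing notes name STAR 2.5.2, featureCounts, Subread 1.5.1 and the build GRCh38, whereas the coordinates in the deposited table are those of mouse GRCm38 (99.82% of 37607 gene identifiers overlap the same gene in GENCODE M21). The lobe is the right medial one by the series text and the right lateral one by the paper. The deposited values are FPKM per gene, computed by the authors, with no further scaling between libraries. Groups follow the sample labels, and the columns of all 20 libraries were used.

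Each FPKM value was turned back into fragments with the gene length, and those checked were whole within 0.15 fragments. Floors of 3 fragments cover counting error only, since no molecular identifiers were used. The test was limma 3.58.1 in R 4.3.3 (lmFit, then eBayes with trend) on log2(FPKM + 0.1), with 1 fit of all 20 libraries and genes kept at FPKM above 0.5 in 5 or more of them. A gene low on control chow can pass this filter through CDAHFD mice alone, which favours a rise among the tested genes of a list. Tnf was also such a gene, at no more than 0.366 FPKM on control chow. Fold changes are on the log2(FPKM + 0.1) scale, which understates the change of low genes. FDR is Benjamini-Hochberg over the 14524 genes of a comparison, and intervals are at the 95% level. Both use 1 estimate of the spread per gene, shared by the 4 groups. The limma step was tested on simulated data. Each library is 1 mouse, and no source used here gives cages or batches, so p-values measure the spread between these mice.

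Correlations, promoter searches and figures used Python 3.11.15, numpy 2.4.6, pandas 2.3.3 and matplotlib 3.10.9. The members and gene lists were chosen with earlier results of these data known. Other genes are named by a rule: of each list the 4 called genes with the lowest FDR in a comparison at most, genes at or near the floor, markers of cell types, the 3 genes nearest to each member, and Thbs1. Most genes named for 1 genotype are also given for the other, but some, such as Fgg, Rbp4 and the genes under the last heading, are not. Alternatives changed the pseudocount, filter, scaling, fold threshold, variance model, libraries in the fit, replicate block, near copies and mice left out.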

Additional observations from a re-analysis of the deposited data

Results flagged for a closer look

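Within each group of 5 mice, the gap between the highest or lowest value and its neighbour was compared with the range of the group (Dixon's criterion, critical value 0.71). The criterion was applied to FPKM, not to the log scale of the other tests. Its chance rate of about 1 in 20 holds for normally distributed values, which was not tested. Of 40 groups, 6 had a mouse that stood apart, which is not shown to exceed chance. In 3 of them the mouse was NDKO replicate 4, with Saa1 at 1216 FPKM (gap over range 0.815), Saa2 at 1117 FPKM (0.897) and Saa3 at 10.7 FPKM (0.875). Another 2 were NDWT replicate 3, with Lcn2 at 8.57 FPKM (0.891) and Apcs at 87.6 FPKM (0.754). The last was NDKO replicate 5, with Saa4 at 68.0 FPKM (0.738). Saa1 and Saa2 are near copies and do not count as separate evidence.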

How the results depend on the processing

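Of 1615 gene results recomputed under alternatives, 1520 kept their direction and call, 72 turned their direction, 20 lost a call and 3 gained one; none of the 72 was a called member. Median of ratios scaling lowered the count of called members to 3 in TSP-1 null on CDAHFD (Orm3, Hp and Apcs were lost, the latter at 0.54) and to 0 between genotypes on the control diet, where quantile normalization also gave 0 (Saa4 at −0.53 and −0.51). It turned the diet log2FC in WT of Saa1 to −0.53, Saa2 to −0.35, Orm1 to −0.40, Hp to −0.15 and Apcs to −0.20, and in TSP-1 null of Saa1 to −0.41, Saa2 to −0.34, Saa4 to −0.082 and Orm1 to −0.41, because it lowers the diet log2FC of the median gene by 0.52 and 0.50. It turned the genotype value of Orm1 to 0.029 and Orm2 to 0.052 on the control diet and of Orm1 to 0.021 and Hp to 0.092 on CDAHFD, and the interaction of Saa2 to 0.015. Quantile normalization added a call of Hp in WT on CDAHFD (0.76), lost that of Orm3 in TSP-1 null (0.44), and put the control diet genotype value of Orm2 at 0.043 and the interaction of Saa3 at −0.012 and Orm1 at 0.0335, and a pseudocount of 1 put that of Orm2 at 0.006. With near copies summed, the Orm3 genotype value on the control diet was −0.040 and the Saa2 interaction 0.054. For settings other than the median of ratios the cause was not tested.

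Without 1 mouse at a time, members called were 4 in WT and 5 to 6 in TSP-1 null on CDAHFD, and 0 to 1 between genotypes on the control diet. The diet log2FC ran from −0.23 to 0.26 for Saa1 and −0.14 to 0.032 for Saa4 in WT, and in TSP-1 null from −0.44 to 0.86 for Saa1, −0.44 to 1.16 for Saa2 and −0.014 to 0.23 for Orm1. The genotype log2FC on the control diet ran from −0.16 to 0.077 for Orm1, −0.40 to 0.32 for Orm2, −0.027 to 0.81 for Orm3 and −0.27 to 0.045 for Apcs, and on CDAHFD from −0.055 to 0.074 for Hp. The interaction ran from −0.45 to 0.85 for Saa1, −0.63 to 0.97 for Saa2, −0.12 to 0.39 for Saa3 and −0.15 to 0.088 for Orm1. Mice with the same replicate number did not deviate together (r −0.13 to 0.08), so the numbers do not pair them, and a replicate block left the counts at 4, 6, 1, 0 and 0. Correlated pairs numbered 11 to 12 under other settings and 11 to 15 without 1 mouse. Depth limits Orm3 on the control diet and the interleukin-6 family.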

Other observations

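Serpina1c and Tat, the hepatocyte genes that fell in WT on CDAHFD, had log2FC of −1.70 and −0.73, while Ahsg, fetuin A, was at 0.41. The macrophage genes Trem2 (6.15), Itgam (4.49), Lyz2 (4.28) and Ccr2 (3.41) were the highest of their list in WT, and the resident markers Vsig4 (−0.36) and Marco (−0.39) were not called. These genes were chosen from the marker lists after their values were seen. Trem2 (at most 0.627 FPKM on control chow), Itgam (at most 0.361) and Ccr2 (at most 0.369) passed the filter only through CDAHFD mice, so their rise was favoured in advance.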
